A study of Mus musculus with 24 samples.

Results

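The 10 genes described here are 3 FOXO transcription factors, Foxo1, Foxo3 and Foxo4, and 7 genes that insulin signalling is known to repress, Pik3ip1, Sesn1, Sesn3, Txnip, Ccng2, Bcl6 and Cited2. They were taken by gene symbol from the annotation of the array. All 10 were found, each with 1 probe set, among 19505 genes measured. Their transcripts were read in 24 mouse tumour samples of a series on pancreatic ductal adenocarcinoma (PDAC), in 4 groups of 6. The groups were BMS754807 alone, hydroxychloroquine alone, both agents together (the combination) and a control that the labels call treated with vector. BMS754807 is a kinase inhibitor of both the IGF1 receptor and the insulin receptor. Hydroxychloroquine makes lysosomes less acidic, so that autophagosomes are not degraded. The sources used here give no strain, tumour site, dose or treatment time. They also do not say whether the 6 tumours of a group are from different mice, so each error and p describes the spread between these samples.

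When insulin or IGF1 binds its receptor, PI3K and AKT are switched on, and AKT phosphorylates the FOXO proteins, which are then bound by 14-3-3 proteins and kept out of the nucleus. When the signal falls, FOXO proteins return to the nucleus and switch on genes of cell cycle arrest, stress defence and restraint of PI3K and mTORC1. AKT acts on the FOXO proteins, so the transcripts of the factors and those of their targets are separate readouts.

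Promoter sequence from RefSeq (GRCm38.p6) was at hand for 9 of the 10 genes, in 11 windows of the 250 bases before the annotated start. Foxo4 was not among them. The windows were searched on both strands for GTAAACA (the FOXO site), CAAAACA (the core of the insulin response element) and CACGTG (the E box bound by MondoA and other factors), and none of these words overlaps another. GTAAACA stood in 3.17% of the 32851 windows of all genes and in 1 of the 9 genes, Txnip, where it lay 121 to 115 bases before the start. CAAAACA stood in 5.56% of all windows and in 1 of the 9 genes, Ccng2, where it lay 16 to 10 bases before the start. CACGTG stood in 6.02% of all windows and in 2 of the 9 genes, Cited2 and 1 of the 2 windows of Bcl6. Only these exact words were searched. Sites of MondoA or FOXO with other letters were not looked for, in Txnip or in any other window. The windows of Txnip (chr3:96557707-96557956, plus strand) and Ccng2 (chr5:93267323-93267572, plus strand) are printed because they hold the FOXO and insulin response words, and Txnip is also the member with the smallest p in BMS754807 against control. Capitals mark the word found.
Txnip: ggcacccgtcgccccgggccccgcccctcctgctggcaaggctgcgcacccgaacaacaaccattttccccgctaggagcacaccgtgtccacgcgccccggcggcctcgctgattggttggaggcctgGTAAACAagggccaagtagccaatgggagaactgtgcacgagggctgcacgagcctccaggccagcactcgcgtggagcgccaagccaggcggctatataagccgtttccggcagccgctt
Ccng2: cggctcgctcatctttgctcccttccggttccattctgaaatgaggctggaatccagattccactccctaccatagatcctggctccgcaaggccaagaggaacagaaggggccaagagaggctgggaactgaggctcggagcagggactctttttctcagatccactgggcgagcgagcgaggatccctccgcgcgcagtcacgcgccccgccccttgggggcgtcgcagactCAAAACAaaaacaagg

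Values are log2 signal of the arrays, in which levels of different genes cannot be set against each other. Array medians lay between 6.79 and 7.03 log2. The keratins Krt7, Krt8, Krt18 and Krt19 of ductal epithelium lay between 15.15 and 17.18 log2 in all 24 tumours, and the epithelial claudins Cldn3, Cldn4 and Cldn7 between 4.33 and 10.21 log2. Of 6 acinar enzyme genes Ctrb1 reached at most 3.08 log2, Cel 3.50, Prss1 4.72, Cpa1 5.37, Cela2a 6.19 and Cela1 8.63 log2. Skeletal muscle transcripts set 5 tumours apart. A muscle score, the mean deviation of 10 muscle genes from their means over all tumours, was 4.39 and 3.55 log2 in BMS754807 tumours 2 and 6, 6.82 in hydroxychloroquine tumour 5, 5.39 in combination tumour 1 and 4.04 in control tumour 5, and at most 0.79 in the other 19. Some results below are also given without these 5 tumours. In such bulk samples, fewer cells of a type and less RNA per cell cannot be told apart.

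BMS754807 against control asks what the receptor inhibitor did on its own. All 10 genes had a lower mean in BMS754807 tumours than in control tumours, and 0 of 10 were higher, beside 50.1% of all genes. Their median difference was -0.25 log2, with a range of -0.54 to -0.013 log2, and the median over all genes was 0.0017 log2. None of these differences passed the test, a limma model fitted over all genes with Benjamini-Hochberg adjustment and a threshold of adjusted p under 0.05. It called 0 of 10 members and 0% of all 19505 genes, with a smallest adjusted p of 0.235. At an unadjusted p under 0.05 it listed 1 of the 10, Txnip, and 5.88% of all genes. Every one of the 10 genes had overlapping ranges in the 2 groups. The members differ from each other in how far they lie from 0, with Pik3ip1, Txnip, Bcl6 and Foxo4 between -0.54 and -0.375 log2 and Cited2, Foxo3, Foxo1 and Sesn1 between -0.083 and -0.013 log2.

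**Figure D1:**
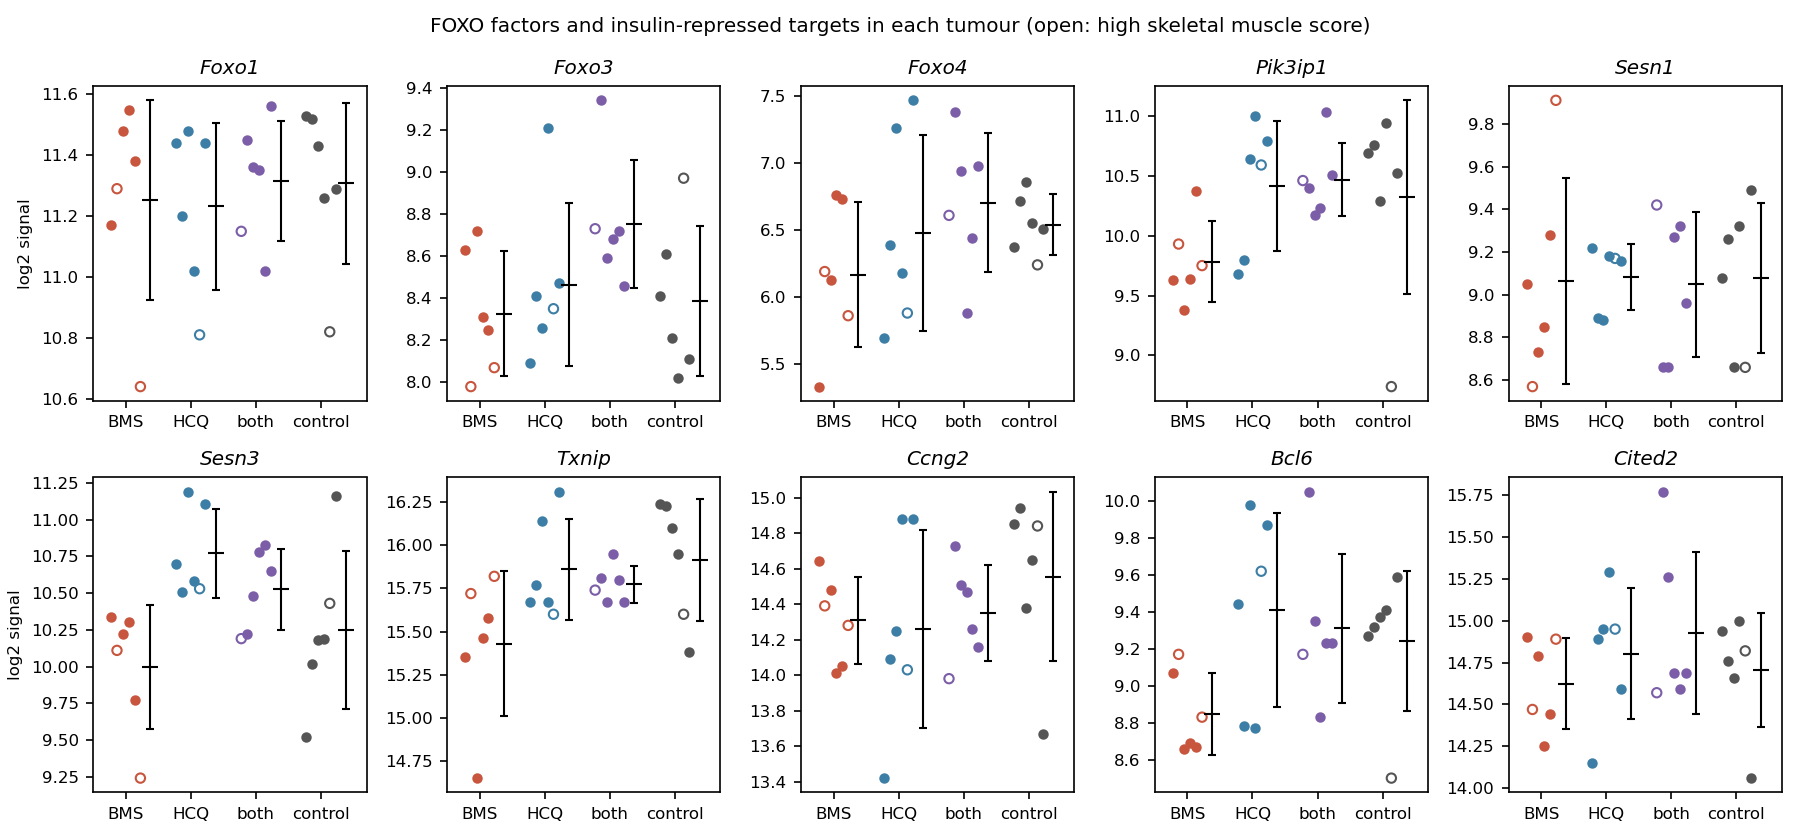
Log2 signal of each of the 10 genes (vertical axes, own scale per gene) in every tumour of the BMS754807 (BMS), hydroxychloroquine (HCQ), combination (both) and control groups, 6 tumours each. Points are tumours, open points are the 5 with a high skeletal muscle score, and bars are mean and SD. In each gene the BMS754807 range overlaps the control range, and all 6 BMS754807 tumours lie below the control mean for Txnip (15.92 log2) and Bcl6 (9.24 log2).

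Among the factors, Foxo1, which drives glucose production in liver and atrophy genes in muscle, was the steadiest of the 10, with a range of 0.92 log2 (1.89-fold) over all tumours. It ran from 10.64 through a median of 11.335 to 11.55 log2 in BMS754807 tumours and from 10.81 through 11.32 to 11.48 in hydroxychloroquine tumours. The combination spanned 11.02, 11.355 and 11.56 log2, and control spanned 10.82, 11.36 and 11.53 log2. The 4 medians lay between 11.32 and 11.36 log2. The lowest tumours were BMS754807 6, hydroxychloroquine 5 and control 5, 3 of the 5 rich in muscle. The difference of BMS754807 from control was -0.06 ± 0.16 log2 (SE, n = 6 each, limma adjusted p = 0.995, 95% interval -0.38 to 0.27).

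Foxo3, the widely expressed factor of stress resistance and cell death, spanned 7.98, 8.28 and 8.72 log2 (lowest, median and highest) in BMS754807 tumours and 8.09, 8.38 and 9.21 log2 in hydroxychloroquine tumours. Combination tumours spanned 8.46, 8.70 and 9.34 log2 and control tumours 8.02, 8.31 and 8.97 log2. All 6 combination tumours lay above the control mean, while the ranges overlapped. The combination differed from control by 0.365 ± 0.19 log2 (SE, limma adjusted p = 0.944, unadjusted p = 0.0687), a level 1.29 times that of control with a 95% interval of 0.979 to 1.69. BMS754807 alone differed from control by -0.06 ± 0.19 log2 (limma adjusted p = 0.995), and by 0.21 log2 without the muscle-rich tumours and 0.055 log2 without control tumour 5 alone.

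Foxo4, the X-linked factor of the family, was among the most variable, with a range of 2.14 log2 over all tumours and a within-group SD of 0.54, against a median of 0.33 over all genes. BMS754807 tumours spanned 5.33, 6.16 and 6.76 log2 and hydroxychloroquine tumours 5.69, 6.285 and 7.47 log2. Combination tumours spanned 5.88, 6.775 and 7.38 log2 and control tumours 6.24, 6.53 and 6.86 log2. Control was the tightest of the 4 groups, and its range lay inside that of hydroxychloroquine and of the combination. The difference of BMS754807 from control was -0.375 ± 0.29 log2 (SE, limma adjusted p = 0.953, interval -0.98 to 0.23), and -0.21 log2 without BMS754807 tumour 1, the lowest of all.

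Pik3ip1 encodes a membrane protein that binds the catalytic subunit of PI3K and inhibits it, and so restrains the pathway upstream of AKT. It spanned 9.38, 9.695 and 10.37 log2 in BMS754807 tumours and 9.68, 10.615 and 11.00 log2 in hydroxychloroquine tumours. Combination tumours spanned 10.17, 10.43 and 11.03 log2 and control tumours 8.74, 10.605 and 10.94 log2. In 5 of 6 BMS754807 tumours the value lay below the control mean, although the lowest tumour of all was control 5. BMS754807 differed from control by -0.54 ± 0.29 log2 (SE, limma adjusted p = 0.89, unadjusted p = 0.0784), the difference farthest from 0 among the 10 genes. Without control tumour 5, whose muscle score was 4.04 and macrophage score 1.345 log2, the difference was -0.86 log2, and without all 5 muscle-rich tumours it was -0.885 log2. The lowest adjusted p among its 36 alternatives was 0.494.

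The sestrins restrain mTORC1, and Sesn1 is a target of p53 as well as of FOXO. Sesn1 was the member with the least difference between groups, with 8.57, 8.95 and 9.91 log2 in BMS754807 tumours, 8.88, 9.165 and 9.22 in hydroxychloroquine tumours, 8.66, 9.115 and 9.42 in combination tumours and 8.66, 9.17 and 9.49 in control tumours. Its differences from control were -0.013, 0.005 and -0.03 log2 in BMS754807, hydroxychloroquine and combination tumours (limma adjusted p from 0.996 to 1), with an interval of -0.42 to 0.395 log2 for BMS754807. Sesn3, the sestrin best known as a FOXO target, had its highest group median in hydroxychloroquine tumours. It spanned 9.24, 10.165 and 10.34 log2 in BMS754807 tumours and 10.51, 10.64 and 11.19 log2 in hydroxychloroquine tumours. Combination tumours spanned 10.19, 10.565 and 10.83 log2 and control tumours 9.52, 10.185 and 11.16 log2. The hydroxychloroquine tumours lay above 5 of the 6 control tumours and overlapped control through control tumour 6, at 11.16 log2. The highest BMS754807 tumour, at 10.34 log2, lay below the lowest hydroxychloroquine tumour, at 10.51 log2. How many of all genes part these groups in this way was not counted, and the difference between these groups was not tested. The difference of BMS754807 from control was -0.25 ± 0.22 log2 (SE, limma adjusted p = 0.961), and it stood at -0.0565 log2 without the muscle-rich tumours.

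Txnip encodes an arrestin-like protein that inhibits thioredoxin and glucose uptake, and its promoter window holds the FOXO word printed above. It spanned 14.65, 15.52 and 15.82 log2 in BMS754807 tumours and 15.60, 15.72 and 16.31 log2 in hydroxychloroquine tumours. Combination tumours spanned 15.67, 15.77 and 15.95 log2 and control tumours 15.38, 16.025 and 16.24 log2. All 6 BMS754807 tumours lay below the control mean, and the ranges overlapped through control tumours 5 and 6. BMS754807 differed from control by -0.49 ± 0.18 log2 (SE, n = 6 each), a level 0.714 times that of control with a 95% interval of 0.552 to 0.923. The unadjusted p was 0.0124, rank 292 of 19505 genes, and the limma adjusted p was 0.822. Over 36 alternative settings the difference lay between -0.72 log2, without the muscle-rich tumours, and -0.33 log2, without BMS754807 tumour 3, the lowest of the group.

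Ccng2, an unconventional cyclin that slows the cell cycle, has the insulin response word near its start. It spanned 14.01, 14.335 and 14.64 log2 in BMS754807 tumours and 13.42, 14.17 and 14.88 log2 in hydroxychloroquine tumours. Combination tumours spanned 13.98, 14.365 and 14.73 log2 and control tumours 13.67, 14.745 and 14.94 log2. Its mean was lower in each treated group than in control, with differences of -0.25 ± 0.23, -0.30 ± 0.23 and -0.20 ± 0.23 log2 in BMS754807, hydroxychloroquine and combination tumours (SE, limma adjusted p from 0.966 to 0.98). Without control tumour 6, the lowest control, these differences were -0.42, -0.47 and -0.38 log2. The hydroxychloroquine difference was -0.13 log2 without hydroxychloroquine tumour 1. The combination difference was -0.13 log2 without control tumour 2 or without combination tumour 1, -0.072 log2 without the muscle-rich tumours and 0.026 log2 with the SD of each array as a covariate.

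Bcl6, a transcriptional repressor that germinal centre B cells need, spanned 8.66, 8.76 and 9.17 log2 in BMS754807 tumours and 8.77, 9.53 and 9.98 log2 in hydroxychloroquine tumours. Combination tumours spanned 8.83, 9.23 and 10.05 log2 and control tumours 8.50, 9.345 and 9.59 log2. The ranges of control and BMS754807 overlapped through control tumour 5, the lowest of all 24, and each other control tumour was above each BMS754807 tumour. How many of all genes part these groups once a tumour is set aside was not counted. BMS754807 differed from control by -0.395 ± 0.22 log2 (SE, limma adjusted p = 0.901, unadjusted p = 0.0875), and by -0.54 log2 without control tumour 5 and -0.62 log2 without the muscle-rich tumours. Cited2, which binds CBP and p300 and competes there with hypoxia-inducible factor, spanned 14.25, 14.63 and 14.90 log2 in BMS754807 tumours, 14.15, 14.92 and 15.29 in hydroxychloroquine tumours, 14.57, 14.69 and 15.77 in combination tumours and 14.06, 14.79 and 15.00 in control tumours. Its difference of -0.08 ± 0.21 log2 between BMS754807 and control was smaller than the SD within either group, 0.27 and 0.34 log2.

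Marker genes of other tissues also differed in mean. In BMS754807 tumours 10 of 10 skeletal muscle genes had a higher mean than in control tumours (median difference 1.54 log2), as did 7 of 7 adipocyte genes (1.14 log2), 7 of 7 fibroblast genes (0.19 log2), 10 of 10 epithelial genes (0.14 log2) and 6 of 7 endothelial genes (0.012 log2), with 0 past the threshold. Muscle scores ran from -1.97 to 4.39 log2 in BMS754807 tumours and from -2.40 to 4.04 log2 in control tumours, and adipocyte scores from -2.22 to 5.20 and from -1.165 to 1.495 log2. Without the 5 muscle-rich tumours 1 of the 10 members, Foxo3, had a higher mean in BMS754807 tumours. The part of adipose tissue and stroma in the members' differences was not tested.

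**Figure D2:**
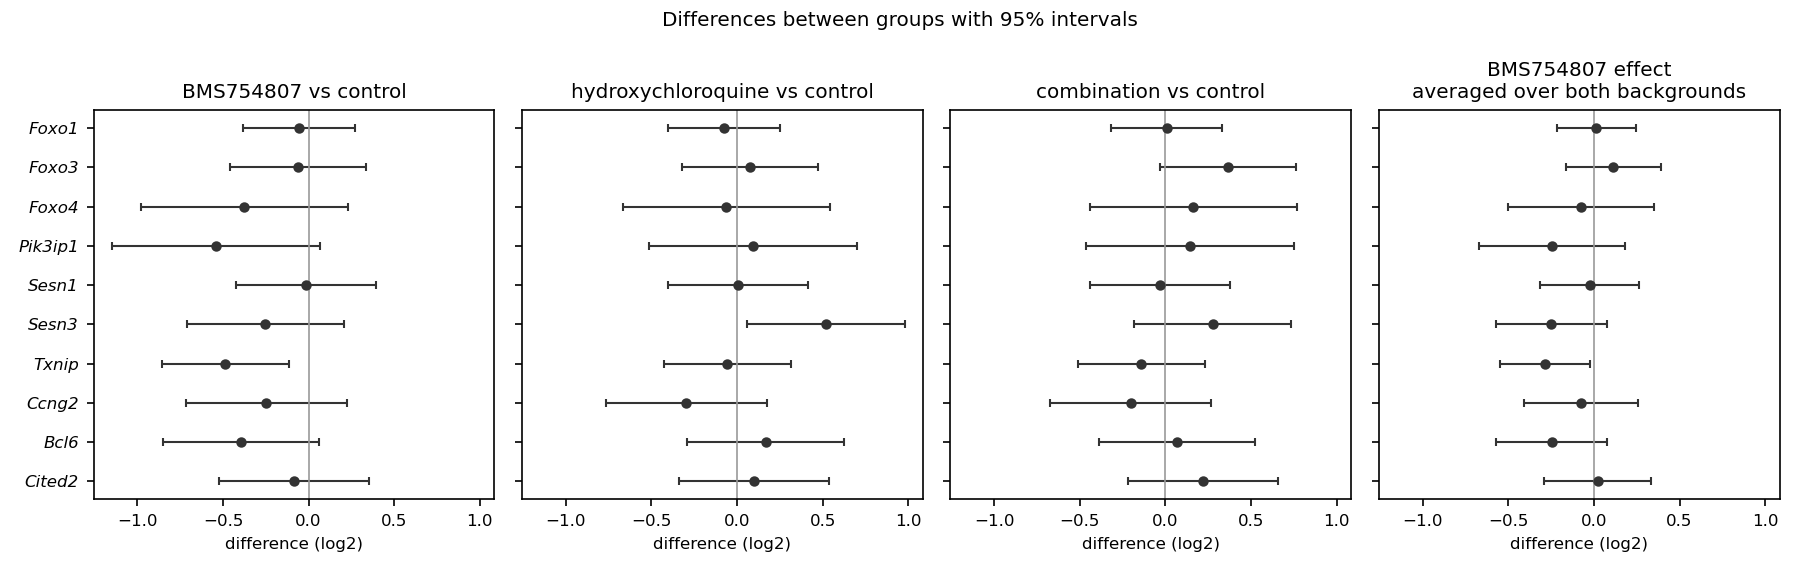
Difference between group means in log2 (horizontal axes) for the 10 genes in 4 comparisons, with points at the estimate and bars at the 95% interval of the limma model. All 10 points lie below 0 in BMS754807 against control, and the interval leaves out 0 for Txnip there and in the averaged BMS754807 effect, and for Sesn3 in hydroxychloroquine against control.

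Hydroxychloroquine against control showed no common direction among the 10 genes. Of the 10, 6 were higher, beside 49.7% of all genes, and their median difference was 0.041 log2. The count was 3 of 10 without the muscle-rich tumours and 2 of 10 without hydroxychloroquine tumour 4. Skeletal muscle markers had a higher mean in hydroxychloroquine than in control tumours for 10 of 10 genes (median 1.36 log2), fibroblast markers for 7 of 7 (0.42 log2) and adipocyte markers for 0 of 7 (-0.55 log2). B and plasma cell markers were higher for 6 of 7 (0.56 log2) and T cell markers for 6 of 7 (0.22 log2). In each of these lists 0 genes passed the threshold, and their part in the result was not tested. Limma called 0 of the 10 and 0% of all genes (smallest adjusted p 0.239). At an unadjusted p under 0.05 it listed 1 of the 10, Sesn3, and 4.81% of all genes. Sesn3 averaged 10.77 ± 0.30 log2 in hydroxychloroquine tumours and 10.25 ± 0.54 log2 in control tumours (SD, n = 6 each), a difference of 0.52 ± 0.22 log2 or a level 1.43 times that of control (interval 1.04 to 1.97, limma adjusted p = 0.979, unadjusted p = 0.0281). All 6 hydroxychloroquine tumours lay above the control mean. Without control tumour 6 the difference was 0.70 log2, and without control tumour 1 it was 0.37 log2. Differences of the other 9 lay between -0.30 log2 (Ccng2) and 0.17 log2 (Bcl6), with Cited2 at 0.097, Pik3ip1 at 0.093, Foxo3 at 0.077, Sesn1 at 0.005, Txnip at -0.057, Foxo4 at -0.063 and Foxo1 at -0.077 log2. Pik3ip1 stood at -0.22 log2 and Bcl6 at 0.018 log2 without control tumour 5.

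Combination against control addresses the effect of giving the agents together. Of the 10 genes 7 were higher, beside 51.4% of all genes, with a median difference of 0.105 log2. The count was 4 of 10 without the muscle-rich tumours and also without control tumour 5 alone. Limma called 0 of the 10 and 0% of all genes (smallest adjusted p 0.849), and at an unadjusted p under 0.05 it listed 0 of the 10 and 5.06% of all genes. Beyond Foxo3, described above, the differences were 0.275 log2 for Sesn3, 0.22 for Cited2, 0.16 for Foxo4, 0.14 for Pik3ip1, 0.067 for Bcl6, 0.0067 for Foxo1, -0.03 for Sesn1, -0.14 for Txnip and -0.20 for Ccng2. Txnip was tight in this group, at 15.77 ± 0.11 log2 in combination tumours and 15.92 ± 0.35 log2 in control tumours (SD, n = 6 each). Cited2 stood at 0.053 log2 without combination tumour 2, its highest tumour at 15.77 log2, and Pik3ip1 at -0.17 log2 without control tumour 5. Macrophage markers were lower in combination than in control tumours for 7 of 7 genes (median -0.65 log2), and so were endothelial markers for 7 of 7 (-0.52 log2). Skeletal muscle markers were higher for 9 of 10 (0.40 log2), epithelial markers for 8 of 10 (0.21 log2) and adipocyte markers for 1 of 7 (-0.43 log2). In each of these lists 0 genes passed the threshold. Their part in the result was not tested. All 3 of the comparisons above used 1 set of 6 control tumours.

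The effect of BMS754807 averaged over both backgrounds, with and without hydroxychloroquine, uses all 24 tumours. Of the 10 genes 3 were higher, Foxo3, Cited2 and Foxo1, beside 50.6% of all genes. Limma called 0 of the 10 and 0% of all genes (smallest adjusted p 0.574), and at an unadjusted p under 0.05 it listed 1 of the 10 and 5.72% of all genes. That gene was Txnip, at -0.29 ± 0.13 log2 (SE, interval -0.55 to -0.02, unadjusted p = 0.0336, limma adjusted p = 0.836). Sesn3, Bcl6 and Pik3ip1 each stood at -0.25 log2 with unadjusted p from 0.126 to 0.25, Ccng2 at -0.077, Foxo4 at -0.074, Sesn1 at -0.024, Foxo1 at 0.013, Cited2 at 0.021 and Foxo3 at 0.11 log2. The median of the 10 was -0.075 log2. Without control tumour 5 Pik3ip1 stood at -0.40 log2. The averaged effect of Txnip joins -0.49 log2 without hydroxychloroquine and -0.087 ± 0.18 log2 with it (SE, limma unadjusted p = 0.634 for the latter). Its unadjusted p was under 0.05 in 27 of 35 alternative settings.

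Combination against hydroxychloroquine is the effect of BMS754807 where hydroxychloroquine was present, and the members did not share a direction there. Of the 10 genes 6 were higher, beside 51.8% of all genes, from -0.245 ± 0.22 log2 (SE) for Sesn3 to 0.29 ± 0.19 log2 for Foxo3. Limma called 0 of the 10 and 0% of all genes (smallest adjusted p 0.769), with 0 of the 10 and 5.39% of all genes at an unadjusted p under 0.05. The interaction, which is this effect minus the effect of BMS754807 without hydroxychloroquine, was above 0 for 9 of the 10 genes, beside 50.8% of all genes. Its median over the 10 was 0.32 log2, from -0.02 ± 0.28 log2 for Sesn1 to 0.60 ± 0.41 log2 for Foxo4 (SE, interval -0.25 to 1.46). Limma called 0 of the 10 and 0% of all genes for it (smallest adjusted p 0.817), and at an unadjusted p under 0.05 it listed 0 of the 10 and 5.05% of all genes. The interaction of other lists also lay to 1 side of 0. It was above 0 for 0 of 10 skeletal muscle genes (median -2.54 log2), and for 0 of 7 genes each of the fibroblast (-0.61), endothelial (-0.59), macrophage (-0.27) and B and plasma cell (-0.775) lists. It was above 0 for 11 of 11 hypoxia-inducible genes (0.37 log2) and 5 of 5 receptor feedback genes that AKT represses (0.13). FOXO targets of atrophy and autophagy were above 0 for 8 of 9 (0.17), and those of arrest, death and stress defence for 10 of 15 (0.23). FOXO targets of metabolism had 4 of 10 (-0.21) and those of lymphocytes 0 of 4 (-0.71). The kinase arm upstream of FOXO had 3 of 15 (-0.14), Mondo genes 1 of 4 (-0.17), and FOXO partners and p53 targets 7 of 13 each. None of these genes passed the threshold, and their part in the members' interaction was not tested. Without the muscle-rich tumours the interaction was above 0 for 9 of the 10 members and 9 of 11 hypoxia-inducible genes. For FOXO targets of metabolism it was then above 0 for 6 of 10 (0.10 log2). It was above 0 for 5 of 13 FOXO partners (-0.0635) and 4 of 13 p53 targets (-0.125). The medians of the other FOXO target, kinase, Mondo and receptor feedback lists kept their side of 0. The cell type lists were not counted without these tumours.

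Any difference among the 4 groups was asked with an F test, which called 0 of the 10 and 0% of all genes (smallest adjusted p 0.117). At an unadjusted p under 0.05 it listed 1 of the 10, Sesn3, and 7.21% of all genes. The limma F test gave Sesn3 an adjusted p of 0.566 (unadjusted 0.0119) and Txnip an unadjusted p of 0.0536. A pair of comparisons was added after the members' values were seen. In the first, tumours with hydroxychloroquine (alone or in the combination) were set against those without it, and Sesn3 differed by 0.52 ± 0.16 log2 (SE, interval 0.20 to 0.85, unadjusted p = 0.00282, limma adjusted p = 0.324). Its unadjusted p was under 0.05 in all 35 alternative settings, in which the difference lay between 0.45 and 0.615 log2. The comparison was chosen with these values seen and holds the tumours of hydroxychloroquine against control, so this count only describes Sesn3. Of the 10 genes 7 were higher in that comparison, beside 50.2% of all genes. Limma listed 1 of the 10 and 8.09% of all genes at an unadjusted p under 0.05 and called 0 of the 10 and 0% of all genes (smallest adjusted p 0.0984).

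The other added comparison set the combination against BMS754807 alone. Of the 10 genes 9 were higher, beside 49.3% of all genes, and 4 of the 10 and 8.61% of all genes had an unadjusted p under 0.05. These were Pik3ip1 at 0.68 ± 0.29 log2, Sesn3 at 0.53 ± 0.22, Bcl6 at 0.46 ± 0.22 and Foxo3 at 0.43 ± 0.19 (SE, limma adjusted p from 0.516 to 0.578). All 6 combination tumours lay above the BMS754807 mean for Pik3ip1, Sesn3, Foxo3 and Txnip, and 5 of 6 did for Bcl6. The share of all genes with such a split was not counted, so these counts only describe the members. Limma called 0 of the 10 and 0% of all genes (smallest adjusted p 0.179). Without the 5 muscle-rich tumours 8 of the 10 were higher and 3 had an unadjusted p under 0.05, Pik3ip1 (0.71 log2), Txnip (0.52) and Bcl6 (0.57), while Sesn3 stood at 0.43 and Foxo3 at 0.28 log2. This comparison shares its BMS754807 tumours with BMS754807 against control.

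Related genes of the pathway were read beside the members in 10 lists. In BMS754807 against control 0 genes of any list passed the threshold. Of the FOXO targets of arrest, death and stress defence 4 of 15 were higher (median -0.21 log2, beside 0.0017 log2 over all genes), and of those of atrophy and autophagy 3 of 9 (median -0.11 log2). Of the receptor feedback genes that AKT represses through FOXO 0 of 5 were higher (median -0.087 log2), and 1 of 5 without the muscle-rich tumours. In these lists most means were lower with BMS754807, as for the members. FOXO targets of metabolism were higher for 6 of 10 (median 0.15 log2), those of lymphocytes 4 of 4 (0.20 log2), the kinase arm upstream of FOXO 11 of 15 (0.038 log2) and FOXO partners and modifiers 9 of 13 (0.06 log2). The Mondo genes that drive Txnip with glucose were higher for 3 of 4 (0.094 log2), p53 targets for 6 of 13 (-0.033 log2) and hypoxia-inducible genes for 1 of 11 (-0.155 log2), and for 5 of 11 of these without the muscle-rich tumours (-0.0085 log2). Without these tumours FOXO targets of metabolism were higher for 5 of 10 (0.016 log2), those of lymphocytes for 3 of 4 (0.11 log2) and p53 targets for 8 of 13 (0.067 log2), and the median of the atrophy and autophagy list was -0.23 log2.

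From each list the gene of smallest p in the averaged BMS754807 effect is named here, plus Igf1r, Insr and Irs2. A gene chosen by its p in these data does not show the size of change in its list. Its p and its counts of settings only describe that gene. Bcl2l11, which encodes the death-promoting protein BIM, differed by -0.645 ± 0.185 log2 between BMS754807 and control (SE, unadjusted p = 0.00192, limma adjusted p = 0.793), and by -0.32 log2 in the averaged effect. Without the muscle-rich tumours these values were -0.40 log2 and -0.17 log2 (unadjusted p = 0.175 for the averaged effect). Trp53inp1, a p53 target of stress and autophagy, differed by -0.52 ± 0.19 log2 (unadjusted p = 0.0112, limma adjusted p = 0.822). On the other side, Irs1, an adaptor of both receptors, differed by 0.37 ± 0.125 log2 (unadjusted p = 0.00727, limma adjusted p = 0.793). Without the muscle-rich tumours the differences of Trp53inp1 and Irs1 were -0.45 and 0.27 log2. Each had a limma unadjusted p under 0.05 in 35 of 36 alternative settings, with a highest of 0.0633 for Trp53inp1 and 0.087 for Irs1. Some of these settings, such as those without a tumour of another group, could not move the difference and changed only its error. Pck1, the enzyme of gluconeogenesis that insulin represses through FOXO1 in liver, differed by 1.86 ± 0.82 log2 (unadjusted p = 0.033, limma adjusted p = 0.839), and by 0.37 log2 without the muscle-rich tumours. Adipocytes also use Pck1. The adipocyte markers given above had a higher mean in the same group, and their part in the Pck1 difference was not tested. The receptors themselves stood near 0, Igf1r at -0.018 ± 0.16 and Insr at -0.027 ± 0.12 log2, and the adaptor Irs2 at -0.32 ± 0.28 log2 (limma adjusted p from 0.963 to 0.998). Differences of Fbxo21, a FOXO-driven ubiquitin ligase subunit, and of the hypoxia gene Car9 were -0.24 ± 0.12 and -0.10 ± 0.26 log2. The kinase gene Stk4 (0.06 ± 0.19, and 0.245 without the muscle-rich tumours), the MondoA partner Mlx (0.077 ± 0.14) and the homing receptor gene Ccr7 (0.0083 ± 0.16) were closer to 0. In the averaged effect Stk4 stood at 0.31 log2 (unadjusted p = 0.0299, limma adjusted p = 0.823), with an unadjusted p under 0.05 in 30 of 35 alternative settings and a range of 0.104 to 0.42 log2 over them.

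**Figure D3:**
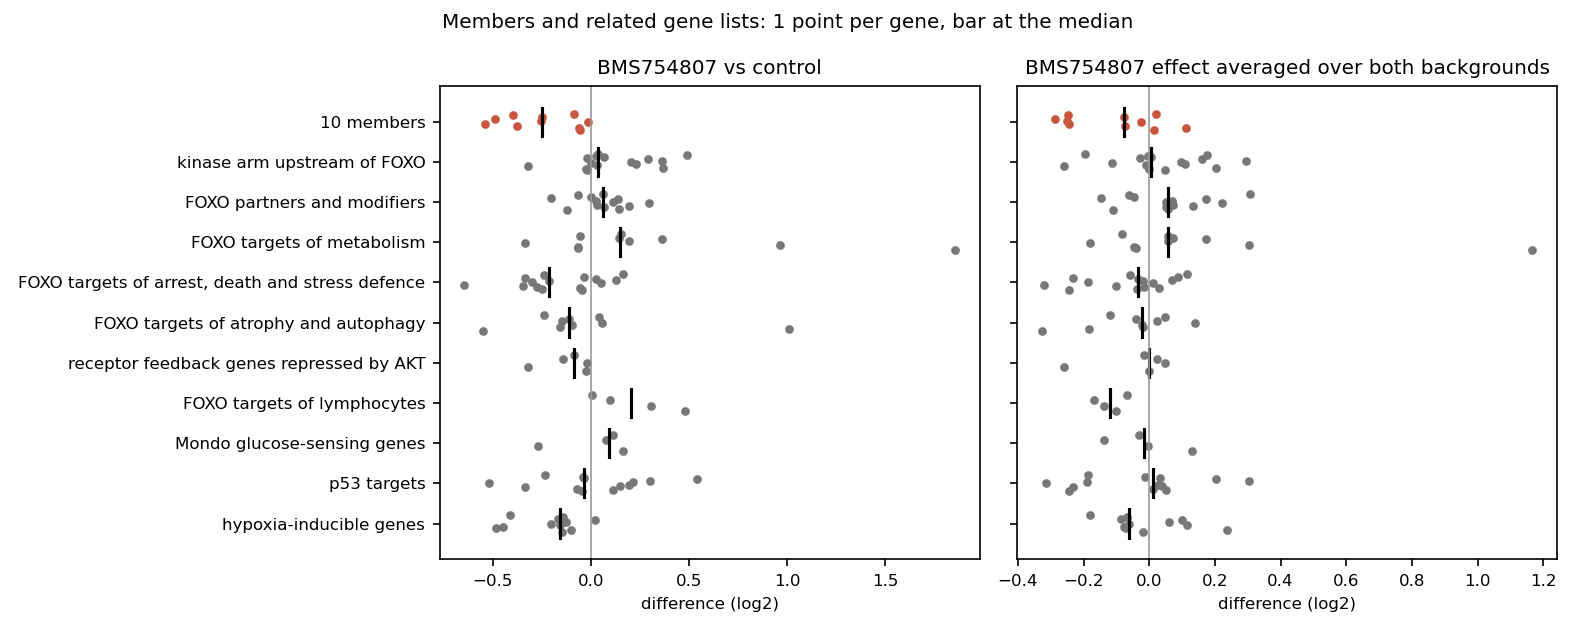
Difference in log2 (horizontal axes) of each gene of the members and of 10 related lists (rows), in BMS754807 against control and in the averaged BMS754807 effect. Each point is a gene and each vertical bar a median. The 10 members lie below 0 on the left with a median of -0.25 log2 and on both sides of 0 on the right with a median of -0.075 log2.

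How the members varied together from tumour to tumour, apart from treatment, was asked with group means subtracted over the 19 tumours without high muscle scores. Of 45 pairs 27 had a positive Pearson r, with a median of 0.086 and a range of -0.53 to 0.74. The pair Ccng2 and Cited2 had r = 0.739 (permutation p = 0.00074, adjusted over 45 pairs 0.0333) and Spearman rho = 0.703 (permutation p = 0.0018, adjusted 0.0405). Its r was 0.567 without the 2 tumours farthest from the median of Ccng2 and 0.71 over all 24 tumours. The adjusted p of r stayed under 0.05 in 8 of 19 removals of a single tumour, in which r lay between 0.664 and 0.853. Foxo3 and Ccng2 had r = 0.699 (permutation p = 0.00298, adjusted 0.067) and rho = 0.743 (permutation p = 0.00174, adjusted 0.0405). Foxo3 and Cited2 had r = 0.681 (permutation p = 0.00461, adjusted 0.0692) and rho = 0.454 (adjusted permutation p = 0.355), and r = 0.456 without the 2 farthest tumours. The 3 pairs of these 3 genes had the highest r of the 45, and no pair of the 3 factors or of the sestrins reached the threshold.

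**Figure D4:**
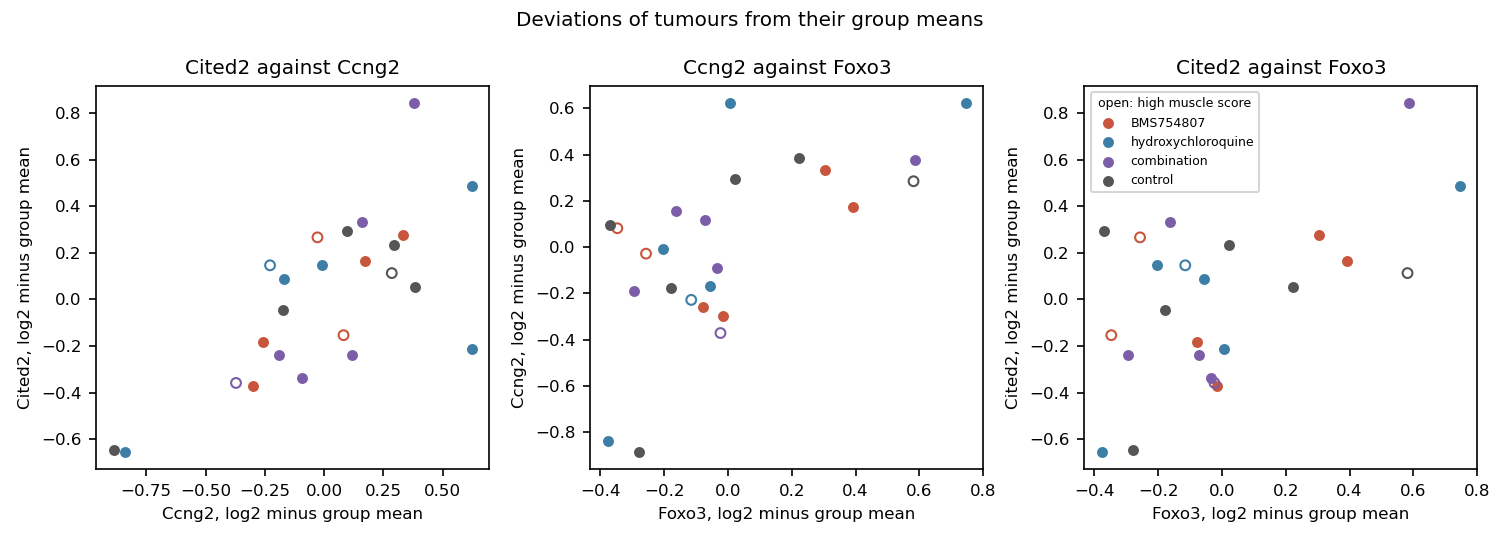
Deviation of each tumour from its group mean, in log2, for the 3 pairs of Foxo3, Ccng2 and Cited2. Points are tumours in the colours of the 4 groups, and open points are the 5 with a high skeletal muscle score. Over the 19 filled points r is 0.739 for Cited2 against Ccng2, 0.699 for Ccng2 against Foxo3 and 0.681 for Cited2 against Foxo3.

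The members were then set beside the scores of the 20 lists over the same 19 tumours, 200 relations that were added after the members' values were seen. A list score is the mean deviation of its genes from their means over all tumours. The same 3 genes varied with the score of 11 hypoxia-inducible genes, Ccng2 with r = 0.716 (adjusted permutation p = 0.016) and rho = 0.82 (0.005), Foxo3 with r = 0.716 (0.0208) and rho = 0.62 (0.124), and Cited2 with r = 0.706 (0.0348) and rho = 0.711 (0.0635). Without the 2 farthest tumours r was 0.693, 0.588 and 0.682 for Ccng2, Foxo3 and Cited2. The adjusted p of r stayed under 0.05 in 19 of 19 removals of a single tumour for Ccng2, 17 of 19 for Foxo3 and 9 of 19 for Cited2 (at most 0.122). Ccng2 and Cited2 also varied with the FOXO targets of atrophy and autophagy, with r = 0.808 (adjusted permutation p = 0.0231, rho = 0.774, adjusted p of rho 0.0529) and r = 0.654 (0.0347, rho = 0.608, adjusted p of rho 0.124), a list that holds the hypoxia-inducible gene Bnip3. Over all 24 tumours these were 0.465 and 0.479, and the calls held in 14 and 11 of 19 removals of a single tumour (adjusted p at most 0.108 and 0.169).

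Foxo1 was lower in tumours with higher stromal markers. Its r was -0.817 with macrophage markers (adjusted permutation p = 0.0208, rho = -0.799), -0.764 with fibroblast markers (0.0231, rho = -0.782) and -0.694 with endothelial markers (0.0348, rho = -0.762), and -0.837, -0.709 and -0.68 without the 2 farthest tumours. These calls held in 17 of 19 removals of a single tumour for macrophage, 15 for fibroblast and 7 for endothelial markers (adjusted p at most 0.0577, 0.0782 and 0.181). Sesn1 varied with the 4 measured FOXO targets of lymphocytes, Klf2, Il7r, S1pr1 and Ccr7 (r = 0.784, adjusted permutation p = 0.012, rho = 0.80), and with T cell markers (r = 0.554, adjusted permutation p = 0.0208, rho = 0.771, r = 0.224 over all 24 tumours). Those calls held in 19 and 15 of 19 removals. Of the 200 relations 10 had an adjusted p of r under 0.05, and 6 had one of rho as well. No relation of Foxo4, Pik3ip1, Sesn3, Txnip or Bcl6 was among the 10. The closest of theirs was Txnip with the receptor feedback genes (r = 0.697, adjusted permutation p = 0.0513).

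Genes most like a member were taken as those with the highest Pearson r over the 19 tumours, group means subtracted, as a description across 19505 genes. Closest to Ccng2 were Gadd45a (r = 0.927), itself a FOXO and p53 target of growth arrest, Mbnl2 (0.917) and Pim1 (0.907). Closest to Cited2 were Mgarp (0.92), Mbnl2 (0.901) and Nr1d1 (0.898), and closest to Foxo3 were Ddit3 (0.856), Ncaph (0.851) and Adm (0.848). Mbnl2 thus stood near the top for both Ccng2 and Cited2. For Txnip they were Madd (0.844), Josd1 (0.825) and Rhox13 (0.793), for Sesn3 Thsd7a (0.869), Dimt1 (0.859) and Fbxo22 (0.832), and for Pik3ip1 Trafd1 (0.819), Maf1 (0.807) and Tcfl5 (0.793). Over all 24 tumours r was lower for each gene named, between 0.429 (Tcfl5 with Pik3ip1) and 0.864 (Mbnl2 and Pim1 with Ccng2). These r are the highest of many and were not tested.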

How the data were processed

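RNA of 24 tumours was measured on Clariom S arrays from 250 ng of total RNA, per the labels' protocols. The authors deposited 1 table of 22206 probe sets without missing values, taken here as log2 signal, a base inferred from the values (1.45 to 19). Transcriptome Analysis Console 4.0 is the software listed, per the submitters' processing notes. Background correction, normalization and the array's genome build were not given in the sources used here. Of the probe sets 19572 had 1 gene symbol and 2634 none, and the one of highest mean per gene was kept, which left 19505 genes.

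A model of group means over the 24 arrays used lmFit and eBayes of limma 3.58.1 under R 4.3.3 (20 residual degrees of freedom, two-sided tests, Benjamini-Hochberg over all genes), after tests on simulated data. Intervals are 95%. Co-variation used 100000 shuffles within groups, and the smallest p these give is 1e-05. Arrays have no count depth, and their number limits the precision.

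The members and lists were chosen with earlier results of these data known. All members were named in comparisons with control, and the extremes elsewhere. Of each list the gene of smallest p in the averaged BMS754807 effect was named (the rule allowed more), plus Igf1r, Insr and Irs2. Like genes were named for members the results turn on. Alternatives covered array weights, quantile normalization, muscle, epithelium and array SD, dim genes, probe sets, the variance model, the groups fitted and each tumour left out.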

Additional observations from a re-analysis of the deposited data

Results flagged for a closer look

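In 5 of 40 sets of 6 tumours, the 10 genes in each of 4 groups, 1 tumour stood apart from the others by a gap above Dixon's limit for 6 values, and chance alone gives such a gap in about 1 in 20 sets. Control tumour 5 was the lowest of its group for Pik3ip1 (8.74 log2, next 10.29) and for Bcl6 (8.50 log2, next 9.27). Its muscle score was 4.04 log2, and it had the second lowest array weight, 0.518. Foxo3 was highest in hydroxychloroquine tumour 4 (9.21 log2, next 8.47) and in combination tumour 2 (9.34 log2, next 8.73). Cited2 was lowest in control tumour 6 (14.06 log2, next 14.66). The report gives the differences of Pik3ip1 and Bcl6 also without control tumour 5.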

How the results depend on the processing

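The count of members past the threshold stayed at 0 in all alternatives of every comparison between groups. Calls of co-variation did depend on single tumours, as given with them in the report. Tumours of different groups share a replicate number in the titles, which are not stated to pair them. With group means subtracted, same-numbered tumours correlated at -0.251 to 0.305, with 9 of 36 pairs above 0.1. Tumours of different number correlated at -0.412 to 0.482, with 39 of 180 pairs above 0.1. Such correlations cannot show whether a number marks something shared, such as a batch. With the replicate block the difference of Txnip between BMS754807 and control was -0.487 log2 (limma unadjusted p = 0.0221). Its averaged BMS754807 effect was then -0.287 log2 (limma unadjusted p = 0.0516). Each number occurs in every group, so the block leaves every difference as it was and changes only its error and p. The count of members higher therefore could not move with it, and the count past the threshold stayed at 0. The number of members higher in BMS754807 against control, 0 in the report, was 1 with array weights, with the array SD, the epithelium score or the muscle score as covariate, without the muscle-rich tumours and without BMS754807 tumour 6 and control tumour 5 together (added after seeing the data), and ran from 0 to 2 with each tumour left out. In hydroxychloroquine against control it was 3 without the muscle-rich tumours and 2 to 7 with each tumour left out, in combination against control 4 without the muscle-rich tumours, 4 without the 2 tumours just named and 4 to 8 with each tumour left out, and in combination against hydroxychloroquine 3 to 7. In the averaged BMS754807 effect it was 1 after quantile normalization. Among pairs of members, the count with an adjusted p of r under 0.05 ran from 0 to 3 with each tumour left out.

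With the array SD as covariate, the averaged effect became 0.078 log2 for Ccng2, 0.074 for Ccr7, -0.114 for Foxo1, 0.048 for Insr and 0.048 for Sesn1. BMS754807 against control became 0.0019 for Igf1r and 0.0024 for Sesn1, combination against control -0.0082 for Bcl6, 0.026 for Ccng2, -0.18 for Foxo1 and 0.077 for Sesn1, hydroxychloroquine against control -0.017 for Sesn1, and the interaction 0.091 for Sesn1. With the epithelium score, the averaged effect became 0.020 for Ccr7, -0.083 for Foxo1, 0.032 for Insr and 0.065 for Sesn1, BMS754807 against control 0.038 for Sesn1, combination against control -0.078 for Bcl6, -0.16 for Foxo1 and 0.126 for Sesn1, and the interaction 0.055 for Sesn1. After quantile normalization, the averaged effect became -0.017 for Cited2 and -0.013 for Foxo1, combination against control -0.030 for Foxo1 and hydroxychloroquine against control -0.023 for Sesn1.

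Without the muscle-rich tumours, the averaged effect became 0.0075 for Insr, BMS754807 against control 0.036 for Car9 and 0.21 for Foxo3, combination against control -0.054 for Bcl6, -0.058 for Foxo1 and -0.17 for Pik3ip1, hydroxychloroquine against control -0.024 for Bcl6, -0.26 for Pik3ip1 and -0.096 for Sesn1, and the interaction 0.0925 for Sesn1. Without BMS754807 tumour 6 and control tumour 5 together, the averaged effect became 0.0077 for Insr, BMS754807 against control 0.106 for Foxo3, combination against control -0.082 for Bcl6, -0.091 for Foxo1 and -0.17 for Pik3ip1, hydroxychloroquine against control -0.22 for Pik3ip1 and -0.079 for Sesn1, and the interaction 0.23 for Sesn1. With the muscle score, BMS754807 against control became 0.016 for Car9 and 0.026 for Foxo1, hydroxychloroquine against control 0.012 for Foxo4 and -0.0096 for Sesn1, and the interaction 0.0057 for Sesn1. With array weights, BMS754807 against control became 0.035 for Foxo3, combination against control -0.063 for Foxo1 and -0.0060 for Pik3ip1, hydroxychloroquine against control -0.103 for Pik3ip1 and -0.019 for Sesn1, and the interaction 0.082 for Sesn1. The causes were not tested.

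With each tumour left out in turn, the averaged effect ran from -0.063 to 0.0695 for Cited2, -0.0355 to 0.0745 for Foxo1, -0.153 to 0.025 for Foxo4, -0.011 to 0.088 for Igf1r, -0.049 to 0.031 for Insr and -0.109 to 0.025 for Sesn1. BMS754807 against control ran from -0.22 to 0.061 for Car9, -0.070 to 0.108 for Ccr7, -0.154 to 0.066 for Foxo1, -0.14 to 0.055 for Foxo3, -0.101 to 0.057 for Igf1r, -0.071 to 0.016 for Insr, -0.18 to 0.086 for Sesn1 and -0.059 to 0.185 for Stk4. Combination against control ran from -0.082 to 0.16 for Bcl6, -0.091 to 0.066 for Foxo1, -0.17 to 0.27 for Pik3ip1 and -0.114 to 0.052 for Sesn1. Hydroxychloroquine against control ran from -0.033 to 0.23 for Cited2, -0.17 to 0.0077 for Foxo1, -0.072 to 0.19 for Foxo3, -0.26 to 0.094 for Foxo4, -0.22 to 0.24 for Pik3ip1, -0.079 to 0.087 for Sesn1 and -0.16 to 0.008 for Txnip. The interaction ran from -0.12 to 0.147 for Sesn1.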
